A study of Mus musculus with 4 samples.

Results

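Glycolysis breaks glucose down to pyruvate in the cytosol, and the pentose phosphate pathway branches off at glucose 6-phosphate to make NADPH and ribose 5-phosphate. The 35 mouse genes described here encode the glucose transporters, the glycolytic enzymes and their regulators, the lactate enzymes and transporters, the pyruvate dehydrogenase kinases and the pentose phosphate enzymes. They were chosen by name, with no measured value in the rule but with earlier results of these data known. They were arranged in 17 steps. All 35 were found among the 52550 genes of the expression table.

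The cells were mouse bone marrow-derived macrophages (BMDM), which are marrow cells matured here with the growth factor M-CSF at 20 ng/ml for 7 days, in medium with 10 mM glucose and 2 mM glutamine. OGT modifies nuclear and cytosolic proteins with O-linked N-acetylglucosamine, a single sugar. The 4 groups were OGT-KO cells after 24 h with the cytokine IL-4 at 20 ng/ml, OGT-KO cells at 0 h, WT (wild-type) cells after 24 h with IL-4, and WT cells at 0 h, and each had 1 library. The purpose given for the series was to profile gene expression with and without OGT while macrophages polarize to the IL-4 (M2) state. How the gene was deleted, in which cells and from how many animals is not given in the sources used here. All 4 samples carry the label of IL-4 stimulation, and the 0 h samples were read as the start of that stimulation. A 24 h culture lacking IL-4 was not analysed here, so the effect of IL-4 and that of time in culture cannot be told apart.

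With 1 library per group no difference below has a replicate check, and no test or error between cultures can be given. Levels are in FPKM (fragments scaled to transcript length and to the mapped fragments of the library), and differences are on the log2(FPKM + 1) scale, which understates the change of genes with low levels. A difference of 1 on that scale is called a 2-fold difference and is used as a size, not as a test. A gene was kept in a comparison where it reached 1 FPKM in at least 1 of the libraries compared.

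The FPKM totals of the libraries lay between 338704 and 353093, and between 10920 and 11169 genes had 1 FPKM or more. As FPKM is scaled to the mapped fragments, these totals do not measure the size of a library. The steps between low values put 1 FPKM of a 2 kb transcript at an estimated 40.0 to 43.8 fragments. The gene-level value of Ogt was 14.5 FPKM in OGT-KO cells at 24 h and 14.2 FPKM in OGT-KO cells at 0 h, against 29.8 FPKM in WT cells at 24 h and 27.4 FPKM in WT cells at 0 h. That value sums the whole gene and does not show how much functional transcript remained. All 10 macrophage markers were above 0 in every library, although 6 of them in OGT-KO cells and 5 in WT cells were past 2-fold lower at 24 h, and 5 of 6 markers of the IL-4 state were past 2-fold higher at 24 h in each genotype. Markers of other cells moved with time and genotype: the summed level of 11 neutrophil markers was 688 FPKM in OGT-KO cells at 24 h and 2125 FPKM in OGT-KO cells at 0 h, against 1052 and 3330 FPKM in WT cells at 24 h and 0 h. Levels differed widely within that list. Ly6g was at or below 0.651 FPKM in all libraries, while S100a9 ran from 377 to 1769 FPKM and Ngp from 110 to 596 FPKM. Summed levels of the other marker lists stayed between 0.460 and 1.70 FPKM for erythroid cells, 29.0 and 100.6 FPKM for megakaryocytes and platelets, 4.89 and 13.1 FPKM for stromal fibroblasts, 3.09 and 13.9 FPKM for B cells and 2.11 and 25.2 FPKM for T cells. Their part in the results was not tested. In bulk RNA, fewer cells of a type and less RNA per cell cannot be told apart.

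Macrophages are known to lean on glycolysis under inflammatory stimulation and to take up and oxidise glucose, together with fatty acids, in the IL-4 state. In the preparatory arm of glycolysis glucose is phosphorylated and split, and in the payoff arm its fragments are oxidised to pyruvate with a net gain of ATP. The oxidative arm of the pentose phosphate pathway yields NADPH, and its non-oxidative arm exchanges carbon between pentoses and glycolytic intermediates. Many genes of these pathways are known targets of HIF-1 and of MYC. The core of the hypoxia response element, which HIF-1 binds, is written ACGTG or GCGTG, and the E-box bound by MYC is CACGTG, which contains ACGTG.

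Stretches before the RefSeq start of 5 members, chosen for being past 2-fold higher at 24 h in both genotypes, are shown so that the cores can be read in them directly. They come from the RefSeq promoter windows on GRCm38.p6, read in the direction of transcription, with each ACGTG or GCGTG in either orientation in capitals (the reverse complements read CACGT and CACGC). The stretches lie at chr4:119108625-119108744 on the plus strand for Slc2a1, chr13:6648788-6648907 on the minus strand for Pfkp, chrX:106186950-106187069 on the plus strand for Pgk1, chr4:150236478-150236597 on the plus strand for Eno1 and chr3:104638464-104638583 on the plus strand for Slc16a1. The end of the Slc2a1 stretch, with part of its ACGTG, lies inside the gene span of the GENCODE annotation, which starts further upstream.
Slc2a1: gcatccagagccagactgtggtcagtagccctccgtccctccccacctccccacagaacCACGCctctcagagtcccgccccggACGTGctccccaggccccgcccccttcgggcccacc
Pfkp: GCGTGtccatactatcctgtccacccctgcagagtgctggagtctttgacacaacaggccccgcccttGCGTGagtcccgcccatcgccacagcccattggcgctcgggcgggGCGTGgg
Pgk1: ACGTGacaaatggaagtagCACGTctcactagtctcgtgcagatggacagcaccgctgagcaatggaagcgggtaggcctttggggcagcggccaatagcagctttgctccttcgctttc
Eno1: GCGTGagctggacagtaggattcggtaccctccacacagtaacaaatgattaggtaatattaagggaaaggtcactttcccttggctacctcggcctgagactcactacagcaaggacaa
Slc16a1: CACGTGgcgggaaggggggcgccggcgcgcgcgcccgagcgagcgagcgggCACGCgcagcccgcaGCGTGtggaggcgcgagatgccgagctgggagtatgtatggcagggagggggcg
A promoter window was matched for 33 of the 35 members, and the 250 bases upstream of a start were searched on both strands, a gene being counted where any of its listed starts held the letters. ACGTG or GCGTG was found for 29 of the 33 members (87.9%), and for 41.5% of all 27025 genes in the promoter table. Those genes were taken whether or not they were expressed in these cells. They were not matched to the members in number of starts or base composition, so the gap between the shares cannot be credited to the pathway. Counted separately, ACGTG was found for 13 members (39.4%) and 18.5% of all genes, and GCGTG for 23 members (69.7%) and 30.9% of all genes. A gene with both cores is in both counts. CACGTG was found for 4 members (12.1%) and 6.86% of all genes. Members with a core include those that differed little with time, such as Hk1, Pdk3, G6pdx and Taldo1. The letters are a description of the sequence and do not show that a factor binds there.

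After 24 h with IL-4 the glucose transporter Slc2a1, the phosphofructokinase Pfkp, the payoff enzymes Pgk1 and Eno1 and the lactate transporter Slc16a1 were past 2-fold higher in both genotypes, and most members differed by less than 2-fold. In the payoff arm 3 of 8 genes were past 2-fold higher in each genotype. So were 1 of 11 preparatory and 0 of 7 pentose phosphate genes. Among all genes kept the share was 5.16% in OGT-KO cells and 4.77% in WT cells. The payoff count takes in Eno1b, which was listed at 0 at 0 h and can share reads with Eno1. Tpi1 was placed in the payoff arm, and Pfkfb3 and Pfkfb4 in the preparatory arm. The 35 members summed to 1834 FPKM in OGT-KO cells at 24 h and 1057 FPKM in OGT-KO cells at 0 h, against 1919 FPKM in WT cells at 24 h and 1207 FPKM in WT cells at 0 h. They made up 0.519% of all FPKM in OGT-KO cells at 24 h and 0.311% at 0 h, against 0.544% in WT cells at 24 h and 0.356% at 0 h. The knockout sums lay below the wild-type sums at the same time, and the gap between times was wider than the gap between genotypes.

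All 35 members were kept in the IL-4 comparison of each genotype. In OGT-KO cells 7 members were past 2-fold higher at 24 h, namely Slc2a1, Slc2a6, Pfkp, Pgk1, Eno1, Eno1b and Slc16a1, and 0 were past 2-fold lower, beside 5.16% higher and 5.99% lower among all 11577 genes kept. In WT cells the same list without Slc2a6 made 6 past 2-fold higher, and Pfkfb3 was the 1 past 2-fold lower, beside 4.77% higher and 6.26% lower among all 11689 genes kept. At 1.5-fold, 17 members were higher and 2 lower in OGT-KO cells (13.8% and 13.4% of all genes), and 15 were higher and 3 lower in WT cells (13.3% and 13.4% of all genes). Above and below 0 lay 27 and 8 members in OGT-KO cells (52.7% and 47.3% of all genes), and 26 and 9 in WT cells (52% and 48%). The median difference of the members was 0.41 in OGT-KO cells and 0.53 in WT cells, where the medians of all genes were 0.03 and 0.02. The direction was the same in both genotypes for 30 of 35 members (85.7%), a share close to the 83.8% of all genes kept in both comparisons, which share no library. The other 5, Hk1, Pfkfb4, Slc16a3, Pdk3 and G6pdx, differed by at most 0.34 on the log2 scale in either genotype, and all but Pfkfb4 changed sign in 1 genotype under a rescaling of the libraries. Eno1b was listed at 0 at 0 h and passed the filter only through its 24 h values.

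**Figure D1:**
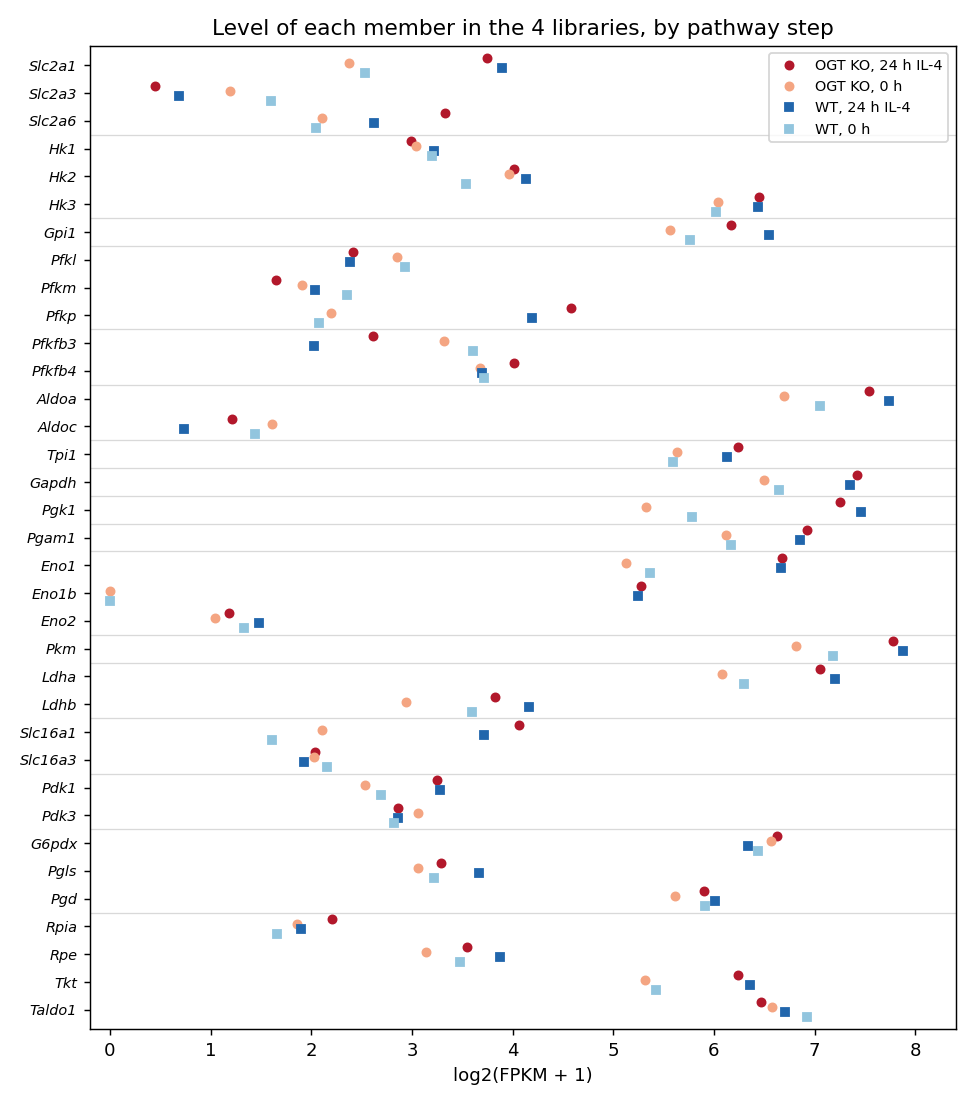
Level of each of the 35 members in the 4 libraries, as log2(FPKM + 1), with the genes ordered down the page by pathway step and each point standing for 1 library. The 24 h points lie to the right of the 0 h points of the same genotype for all 8 payoff genes, and Eno1b lies at 0 in both 0 h libraries.

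Glucose enters through the facilitative transporters of the Slc2a family. Slc2a1, which encodes GLUT1 and spans chr4:119108711-119137983 on the plus strand, had 12.4 FPKM at 24 h and 4.19 FPKM at 0 h in OGT-KO cells, against 13.9 FPKM at 24 h and 4.80 FPKM at 0 h in WT cells. Both 24 h libraries lay above both 0 h libraries, with a 24 h minus 0 h difference of 1.37 in OGT-KO cells and 1.36 in WT cells. Slc2a6, which encodes GLUT6, a transporter of intracellular membranes, at chr2:27021363-27027998 on the minus strand, had 9.03 FPKM at 24 h and 3.30 FPKM at 0 h in OGT-KO cells, against 5.18 FPKM at 24 h and 3.12 FPKM at 0 h in WT cells. Its difference was 1.22 in OGT-KO cells and 0.58 in WT cells, so the OGT-KO library at 24 h stood above the other 3. Slc2a3, which encodes the high-affinity transporter GLUT3, was lower at 24 h, with 0.363 FPKM at 24 h and 1.28 FPKM at 0 h in OGT-KO cells, against 0.606 FPKM at 24 h and 2.03 FPKM at 0 h in WT cells. Its differences of −0.74 and −0.91 rest on low levels, at an estimated 46.0 to 278 fragments per library. Within the summed FPKM of the 3 transporters, Slc2a1 held 57.0% and 47.8% in OGT-KO cells at 24 h and 0 h and 70.6% and 48.3% in WT cells at 24 h and 0 h.

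The hexokinases trap glucose in the cell as glucose 6-phosphate. Hk3, the form typical of myeloid cells, had 86.2 FPKM at 24 h and 64.7 FPKM at 0 h in OGT-KO cells, against 85.5 FPKM at 24 h and 64.0 FPKM at 0 h in WT cells, and made up 74.8% to 79.6% of hexokinase FPKM in the 4 libraries. Hk2, an inducible form, had 15.1 FPKM at 24 h and 14.6 FPKM at 0 h in OGT-KO cells, against 16.5 FPKM at 24 h and 10.6 FPKM at 0 h in WT cells. WT cells at 0 h had the lowest Hk2 value, and the other 3 lay close together, with differences of 0.05 in OGT-KO cells and 0.59 in WT cells. Hk1, the widely expressed form, stayed between 6.98 and 8.29 FPKM. Gpi1, which isomerises glucose 6-phosphate to fructose 6-phosphate, had 71.2 FPKM at 24 h and 46.4 FPKM at 0 h in OGT-KO cells, against 92.5 FPKM at 24 h and 53.4 FPKM at 0 h in WT cells. It was higher at 24 h in each genotype by 0.61 and 0.78, under 2-fold.

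Phosphofructokinase catalyses the committed step of glycolysis and is built from liver-type (Pfkl), muscle-type (Pfkm) and platelet-type (Pfkp) subunits. Pfkp, at chr13:6579768-6648777 on the minus strand, had 23.0 FPKM at 24 h and 3.59 FPKM at 0 h in OGT-KO cells, against 17.3 FPKM at 24 h and 3.22 FPKM at 0 h in WT cells. Both 24 h libraries lay far above both 0 h libraries, by 2.39 in OGT-KO cells and 2.11 in WT cells. Pfkl was lower at 24 h by 0.44 and 0.55 on the log2 scale, with 4.33 FPKM at 24 h and 6.22 FPKM at 0 h in OGT-KO cells, against 4.21 FPKM at 24 h and 6.61 FPKM at 0 h in WT cells. Pfkm had 2.13 FPKM at 24 h and 2.74 FPKM at 0 h in OGT-KO cells, against 3.10 FPKM at 24 h and 4.12 FPKM at 0 h in WT cells. The make-up of the step differed between times. Pfkp held 78.0% of its summed FPKM at 24 h and 28.6% at 0 h in OGT-KO cells, and 70.3% at 24 h and 23.1% at 0 h in WT cells. Pfkl, the most abundant subunit gene at 0 h, held 14.7% at 24 h and 49.6% at 0 h in OGT-KO cells, and 17.1% at 24 h and 47.4% at 0 h in WT cells. Pitrm1 overlaps an exon of Pfkp on the opposite strand and had 7.16 to 11.2 FPKM, and Senp1 overlaps Pfkm in the same way at 2.50 to 2.62 FPKM.

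The bifunctional enzymes Pfkfb3 and Pfkfb4 set the level of fructose 2,6-bisphosphate, the allosteric activator of phosphofructokinase. Pfkfb3, the form with a strongly kinase-biased activity, lies at chr2:11471433-11554077 on the minus strand and had 5.14 FPKM at 24 h and 9.01 FPKM at 0 h in OGT-KO cells, against 3.07 FPKM at 24 h and 11.1 FPKM at 0 h in WT cells. Both 24 h libraries lay below both 0 h libraries, by 0.71 in OGT-KO cells and 1.58 in WT cells on the log2 scale. Pfkfb4 had 15.1 FPKM at 24 h and 11.8 FPKM at 0 h in OGT-KO cells, against 11.9 FPKM at 24 h and 12.2 FPKM at 0 h in WT cells. The knockout library at 24 h was the highest for Pfkfb4, and the other 3 differed by at most 0.05.

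Aldolase splits the hexose into trioses, and triose phosphate isomerase converts these into each other. Aldoa, the main aldolase gene here, had 185 FPKM at 24 h and 103 FPKM at 0 h in OGT-KO cells, against 212 FPKM at 24 h and 131 FPKM at 0 h in WT cells. Aldoc, the form known from brain, had 1.32 FPKM at 24 h and 2.06 FPKM at 0 h in OGT-KO cells, against 0.659 FPKM at 24 h and 1.72 FPKM at 0 h in WT cells. Aldoa was higher at 24 h by 0.85 and 0.69, and Aldoc, the minor gene of the step, had differences of −0.40 and −0.71. Tpi1 had 74.4 FPKM at 24 h and 48.5 FPKM at 0 h in OGT-KO cells, against 68.8 FPKM at 24 h and 47.4 FPKM at 0 h in WT cells. Spsb2 overlaps an exon of Tpi1 on the opposite strand, at 13.2 to 15.3 FPKM.

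**Figure D2:**
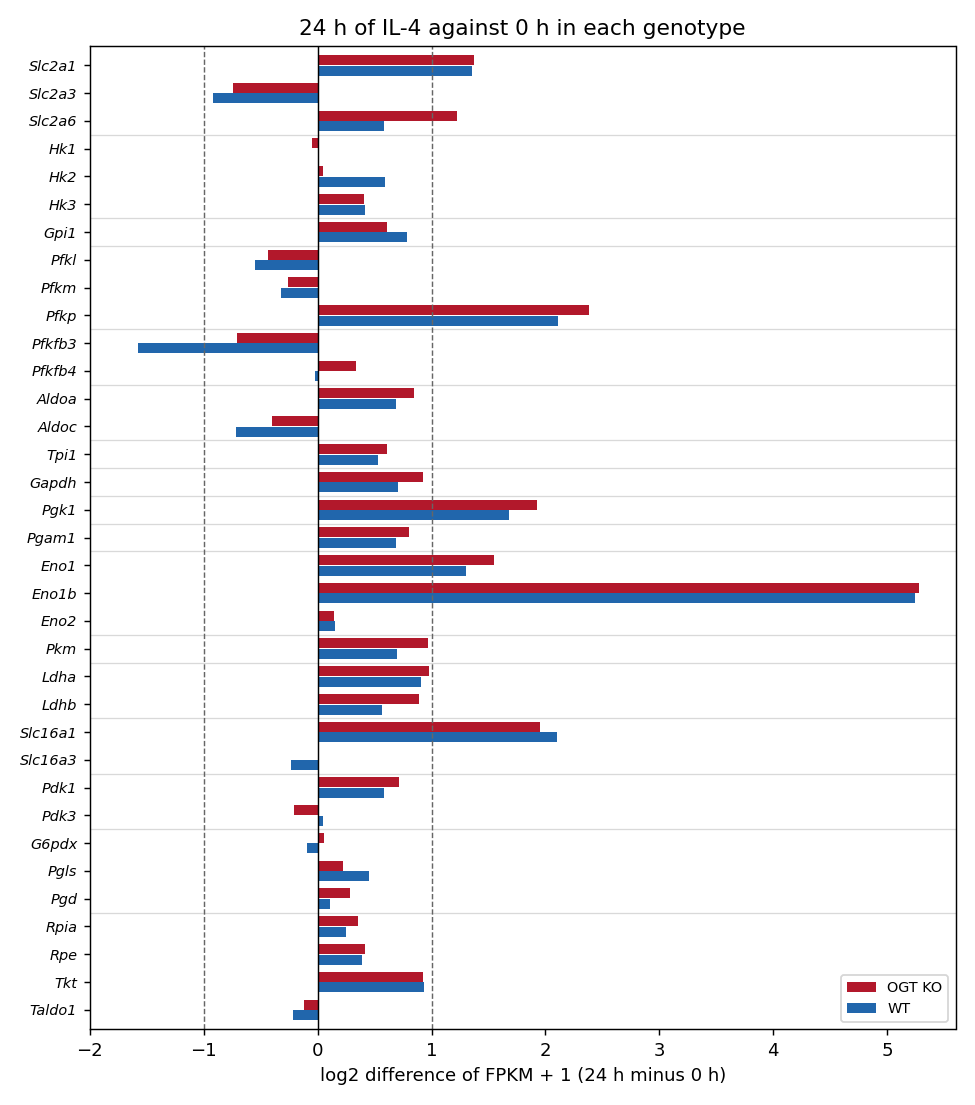
Difference between 24 h and 0 h on the log2(FPKM + 1) scale for each member in OGT-KO cells and in WT cells, ordered by pathway step. Pfkp, Pgk1, Eno1, Slc2a1 and Slc16a1 lie past 1 in both genotypes, and Pfkfb3 lies at −0.71 in OGT-KO cells and −1.58 in WT cells.

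In the payoff arm all 8 genes, Tpi1 and Eno1b among them, lay above 0 in both genotypes, beside 52.7% and 52% of all genes. The median difference of the arm was 0.95 in OGT-KO cells and 0.70 in WT cells. Pgk1, which makes the first ATP of the arm and lies at chrX:106187100-106203699 on the plus strand, had 151 FPKM at 24 h and 39.1 FPKM at 0 h in OGT-KO cells, against 175 FPKM at 24 h and 53.9 FPKM at 0 h in WT cells. Eno1, the main enolase gene, at chr4:150236721-150248879 on the plus strand, had 101 FPKM at 24 h and 34.0 FPKM at 0 h in OGT-KO cells, against 100.6 FPKM at 24 h and 40.3 FPKM at 0 h in WT cells. These genes had the widest differences of the arm after Eno1b, at 1.93 and 1.68 for Pgk1 and 1.55 and 1.30 for Eno1 in OGT-KO and WT cells. Gapdh, which oxidises glyceraldehyde 3-phosphate, had 171 FPKM at 24 h and 89.3 FPKM at 0 h in OGT-KO cells, against 162 FPKM at 24 h and 99.1 FPKM at 0 h in WT cells. Pgam1, the phosphoglycerate mutase, had 120.5 FPKM at 24 h and 68.5 FPKM at 0 h in OGT-KO cells, against 114 FPKM at 24 h and 70.7 FPKM at 0 h in WT cells. Pkm, which encodes the muscle-type pyruvate kinases, had 219 FPKM at 24 h and 111 FPKM at 0 h in OGT-KO cells, against 234 FPKM at 24 h and 144 FPKM at 0 h in WT cells. Gapdh, Pgam1 and Pkm were higher at 24 h by 0.81 to 0.97 in OGT-KO cells and by 0.69 to 0.71 in WT cells, under 2-fold. Gapdh is often used to normalise qPCR, and here it differed by 0.93 and 0.71 between times. Eno2, the neuron-type enolase gene, stayed between 1.06 and 1.80 FPKM. Gm49759 overlaps an exon of Pkm on the same strand, at 6.30 to 12.7 FPKM. Iffo1 overlaps an exon of Gapdh on the opposite strand, at 3.53 to 5.40 FPKM.

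Eno1b, a near-identical copy of Eno1, had 37.8 FPKM in OGT-KO cells at 24 h and 37.0 FPKM in WT cells at 24 h, and was listed at 0 in both 0 h libraries, so no fold is given. Its coding sequence differed from that of Eno1 at 8 of 1302 bases (99.39% identity), and reads of one can be assigned to the other. Gm4735, another copy with 5 mismatches to Eno1 in the coding sequence (99.62% identity), had 49.9 FPKM at 24 h and 18.7 FPKM at 0 h in OGT-KO cells, against 50.3 FPKM at 24 h and 21.8 FPKM at 0 h in WT cells. Coding bases 1176 to 1235 of Eno1 on chromosome 4 are shown with the aligned bases of Gm4735 on chromosome 2, from the GENCODE M21 transcripts. They hold 2 of these mismatches, in capitals, after a long identical run.
Eno1: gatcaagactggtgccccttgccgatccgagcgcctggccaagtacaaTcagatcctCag
Gm4735: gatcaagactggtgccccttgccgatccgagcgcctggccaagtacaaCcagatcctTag
Eno1 and its 4 copies, Eno1b among them, summed to 189.2 FPKM at 24 h and 52.8 FPKM at 0 h in OGT-KO cells, against 188.0 FPKM at 24 h and 62.1 FPKM at 0 h in WT cells. The differences of that sum were 1.82 in OGT-KO cells and 1.58 in WT cells, past 2-fold as for Eno1 alone.

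Other payoff genes share sequence with copies too. A search of the transcripts for stretches of at least 200 bases at 95% identity or more found 105 copies of 10 members, 91 of them copies of Gapdh. The Gapdh copies summed to 156 FPKM at 24 h and 80.1 FPKM at 0 h in OGT-KO cells, against 164 FPKM at 24 h and 81.8 FPKM at 0 h in WT cells, or 45.2% to 50.2% of the sum with Gapdh. The Pgk1 copies Pgk1-rs7 and Gm5537, with no mismatch over 1250 and 1251 aligned coding bases, held 24.5% to 26.3% of the sum with Pgk1. Pgam1-ps2, with no mismatch over 762 coding bases, held 34.0% to 35.6% of the sum with Pgam1. With the copies added, the differences were 0.94 and 0.85 for Gapdh, 1.91 and 1.66 for Pgk1, and 0.84 and 0.70 for Pgam1 in OGT-KO and WT cells. The level listed under each of these genes is therefore uncertain, while adding the copies moved no member across 2-fold in any of the 5 comparisons.

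**Figure D3:**
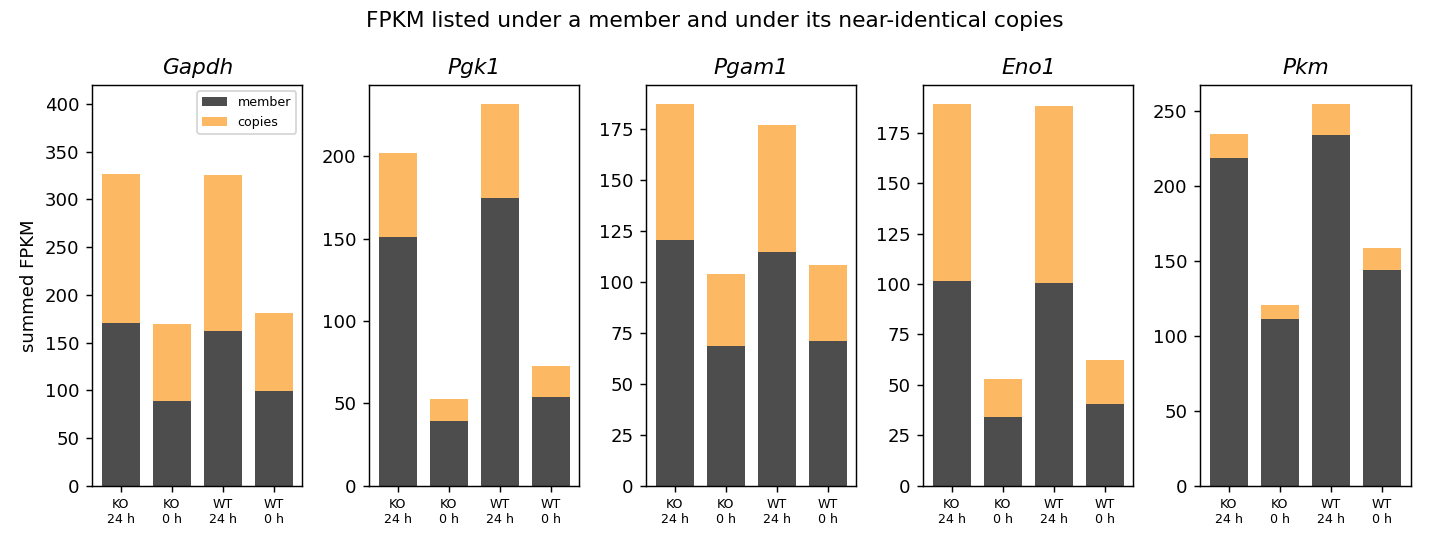
FPKM listed under Gapdh, Pgk1, Pgam1, Eno1 and Pkm (dark) and summed over their near-identical copies (orange) in each library, with Eno1b counted among the copies of Eno1. The copies hold about as much as Gapdh itself in each library, and the 24 h bars stand above the 0 h bars of the same genotype for all 5 genes.

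Lactate dehydrogenase and the monocarboxylate transporters dispose of pyruvate as lactate. Ldha, which encodes the subunit that favours lactate formation, had 132 FPKM at 24 h and 66.6 FPKM at 0 h in OGT-KO cells, against 147 FPKM at 24 h and 77.6 FPKM at 0 h in WT cells. Ldhb, which encodes the heart-type subunit, had 13.2 FPKM at 24 h and 6.66 FPKM at 0 h in OGT-KO cells, against 16.9 FPKM at 24 h and 11.1 FPKM at 0 h in WT cells. Ldha was higher at 24 h by 0.97 and 0.91, and Ldhb by 0.89 and 0.57, all under 2-fold. Slc16a1, which encodes the monocarboxylate transporter MCT1, lies at chr3:104638668-104658462 on the plus strand and had 15.7 FPKM at 24 h and 3.31 FPKM at 0 h in OGT-KO cells, against 12.1 FPKM at 24 h and 2.05 FPKM at 0 h in WT cells. Slc16a3, which encodes the lactate exporter MCT4, had 3.11 FPKM at 24 h and 3.07 FPKM at 0 h in OGT-KO cells, against 2.80 FPKM at 24 h and 3.46 FPKM at 0 h in WT cells. Slc16a1 differed by 1.96 in OGT-KO cells and 2.11 in WT cells while Slc16a3 differed by 0.02 and −0.23. Slc16a1 thus held 83.5% of the FPKM of the pair at 24 h and 51.9% at 0 h in OGT-KO cells, and 81.2% at 24 h and 37.2% at 0 h in WT cells.

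The pyruvate dehydrogenase kinases phosphorylate pyruvate dehydrogenase and so keep pyruvate from the mitochondrial citric acid cycle. Pdk1 had 8.49 FPKM at 24 h and 4.80 FPKM at 0 h in OGT-KO cells, against 8.69 FPKM at 24 h and 5.45 FPKM at 0 h in WT cells. Pdk3 had 6.24 FPKM at 24 h and 7.34 FPKM at 0 h in OGT-KO cells, against 6.29 FPKM at 24 h and 6.06 FPKM at 0 h in WT cells. Pdk1 was higher at 24 h by 0.71 and 0.59 and held 57.6% and 58.0% of the pair at 24 h, while Pdk3 differed by −0.20 and 0.05.

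**Figure D4:**
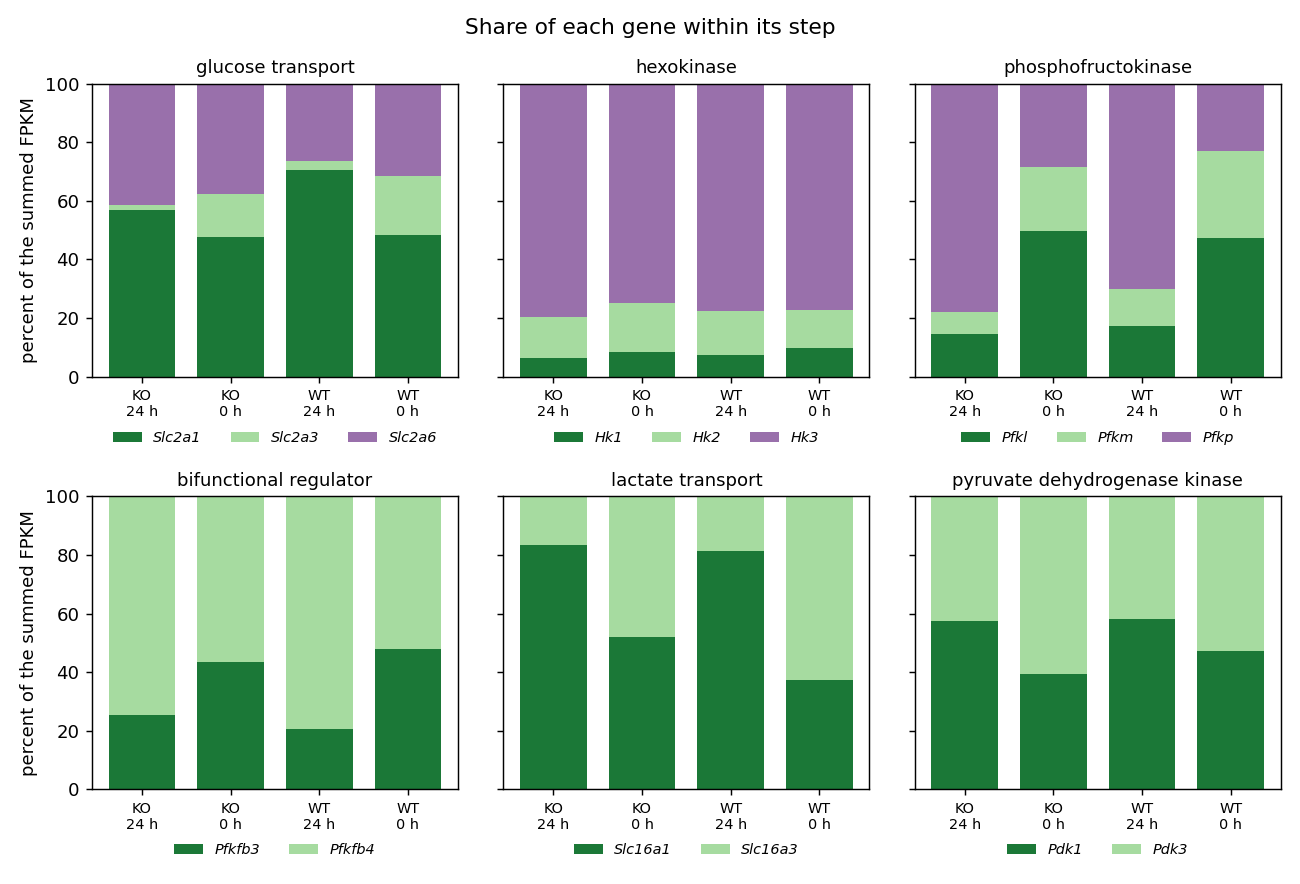
Percent of the summed FPKM that each gene holds within 6 steps that have more than 1 gene, by library. Pfkp holds 78.0% and 70.3% of phosphofructokinase at 24 h in OGT-KO and WT cells and 28.6% and 23.1% at 0 h, whereas the hexokinase shares stay nearly level with Hk3 at 74.8% to 79.6%.

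The pentose phosphate pathway did not follow the payoff arm as a block. Its 3 oxidative genes had a median difference of 0.22 in OGT-KO cells and 0.11 in WT cells. G6pdx, the glucose 6-phosphate dehydrogenase gene that sets entry into the pathway, had 98.0 FPKM at 24 h and 94.1 FPKM at 0 h in OGT-KO cells, against 80.1 FPKM at 24 h and 85.8 FPKM at 0 h in WT cells. Pgls, which encodes the lactonase, had 8.77 FPKM at 24 h and 7.36 FPKM at 0 h in OGT-KO cells, against 11.7 FPKM at 24 h and 8.32 FPKM at 0 h in WT cells. Pgd, the second NADPH-making enzyme, had 58.8 FPKM at 24 h and 48.1 FPKM at 0 h in OGT-KO cells, against 63.6 FPKM at 24 h and 59.0 FPKM at 0 h in WT cells. None of the 3 reached 1.5-fold between times in either genotype. Ikbkg shares exon sequence with G6pdx on the opposite strand, at 3.43 to 6.43 FPKM.

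In the non-oxidative arm Tkt, the transketolase gene, had 74.4 FPKM at 24 h and 38.7 FPKM at 0 h in OGT-KO cells, against 81.1 FPKM at 24 h and 41.9 FPKM at 0 h in WT cells. Taldo1, the transaldolase gene, had 87.3 FPKM at 24 h and 94.7 FPKM at 0 h in OGT-KO cells, against 104 FPKM at 24 h and 121 FPKM at 0 h in WT cells. Tkt was higher at 24 h by 0.93 and 0.94, just under 2-fold, and Taldo1 differed by −0.12 and −0.22. Rpe, the pentose epimerase, had 10.7 FPKM at 24 h and 7.79 FPKM at 0 h in OGT-KO cells, against 13.7 FPKM at 24 h and 10.2 FPKM at 0 h in WT cells. Rpia, the ribose 5-phosphate isomerase, had 3.63 FPKM at 24 h and 2.62 FPKM at 0 h in OGT-KO cells, against 2.73 FPKM at 24 h and 2.15 FPKM at 0 h in WT cells. Both lay above 0 between times by 0.24 to 0.41. Kansl1l overlaps Rpe on the opposite strand, at 0.934 to 2.61 FPKM. Mir3076 overlaps Tkt on the same strand, at 0.743 to 1.44 FPKM.

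At 0 h no member differed by 2-fold between genotypes, and most OGT-KO values lay a little below WT. Of the 34 members kept at 0 h (all but Eno1b), 0 were past 2-fold in either direction, beside 0.88% higher and 0.871% lower among all 11480 genes kept. At 1.5-fold, 0 were higher and 1, Ldhb, was lower, beside 2.78% and 3.34% of all genes. Ldhb, with 6.66 FPKM in OGT-KO cells and 11.1 FPKM in WT cells at 0 h, differed by −0.66. There were 24 members below and 10 above 0, with a median of −0.16, where 59.5% of all genes lay below and 40.5% above 0 with a median of −0.05. After Ldhb, the widest differences below 0 were those of Pgk1 and Pfkm at −0.46 and −0.45, and the widest above 0 were those of Slc16a1 and Hk2 at 0.50 and 0.43. Beside these values, the 10 neutrophil markers kept at 0 h were all lower in OGT-KO cells, with a median of −0.58, as were the 4 megakaryocyte and platelet markers kept, with a median of −0.83, and the 3 stromal markers kept, with a median of −0.53. Of the 16 cell cycle genes kept, 14 were lower, with a median of −0.36. Their part in the members' values was not tested.

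After 24 h with IL-4 no member differed by 2-fold between genotypes either, and the glucose transporter Slc2a6 and the regulator Pfkfb3 stood furthest apart. Of the 34 members kept (all but Slc2a3), 0 were past 2-fold in either direction, beside 0.832% higher and 0.628% lower among all 11302 genes kept. At 1.5-fold, Slc2a6 and Pfkfb3 were higher in OGT-KO cells, which makes 2 members beside 2.91% of all genes, and 0 were lower beside 2.48% of all genes. Slc2a6 had 9.03 FPKM in OGT-KO cells and 5.18 FPKM in WT cells at 24 h, a difference of 0.70. Pfkfb3 had 5.14 FPKM in OGT-KO cells and 3.07 FPKM in WT cells at 24 h, a difference of 0.59. There were 16 members above and 18 below 0, with a median of −0.02 (0.03 under 1 of the rescalings), where 41.4% of all genes lay above and 58.6% below 0 with a median of −0.05. Markers moved beside these values too: 9 of 10 neutrophil markers were lower in OGT-KO cells at 24 h, with a median of −0.41, and 15 of 16 cell cycle genes were, with a median of −0.21. Both platelet markers kept were lower, with a median of −0.92, and so were both stromal markers, with a median of −0.36. The macrophage markers had a median of 0.03, with Itgam alone past 2-fold lower at −1.07. Their part in the members' values was not tested. Of the 33 members kept at both times, 24 (72.7%) differed from WT in the same direction at 24 h and 0 h, beside 68.9% of all genes.

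**Figure D5:**
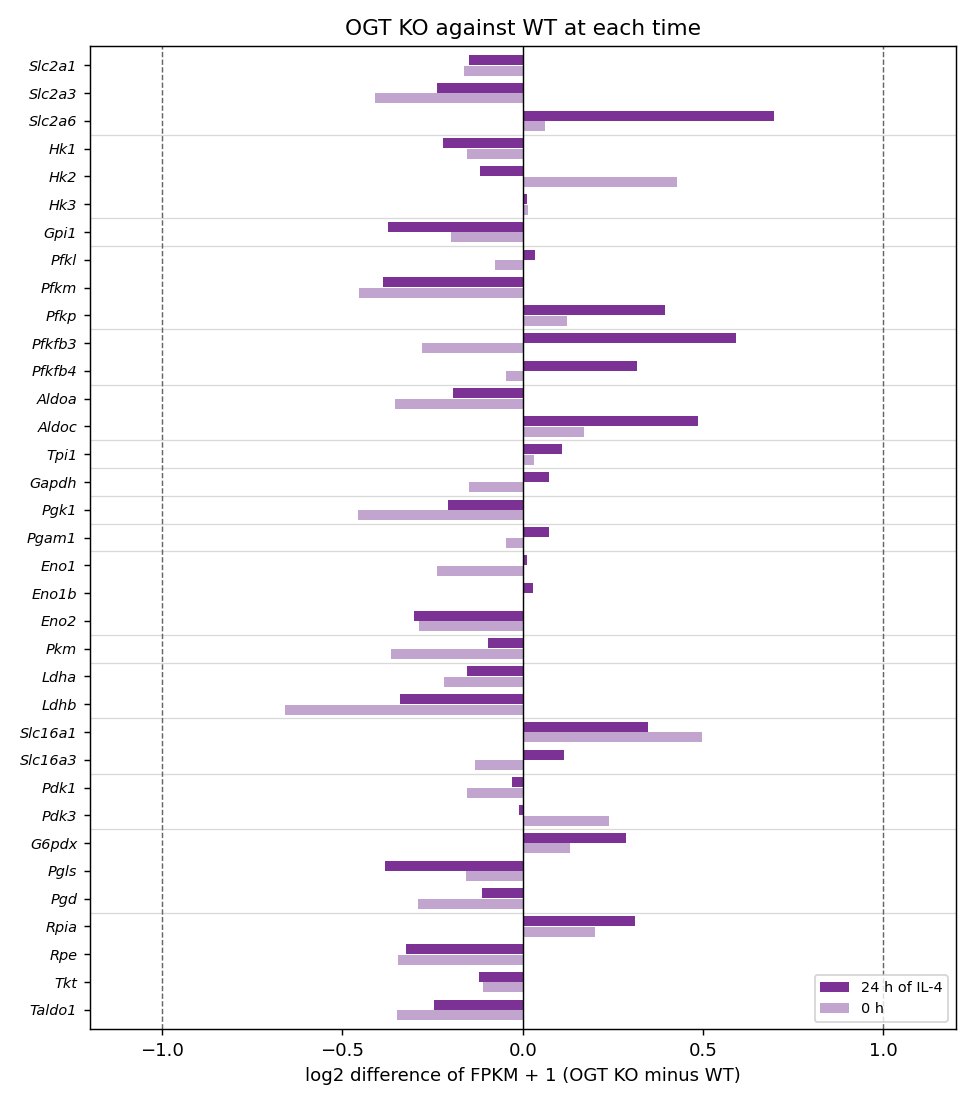
Difference between OGT-KO and WT cells on the log2(FPKM + 1) scale for each member at 24 h and at 0 h, ordered by pathway step. No member reaches 1 in either direction, Ldhb lies lowest at 0 h at −0.66, and Slc2a6 lies highest at 24 h at 0.70.

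The IL-4 difference itself was compared between genotypes by subtracting the WT value from the OGT-KO value, a quantity that reuses all 4 libraries. Across the 35 members 0 were past 2-fold in either direction (1.27% and 1.17% of all 12002 genes kept), and at 1.5-fold 2 were higher and 0 lower (3.82% and 3.12% of all genes). Pfkfb3 had the widest value at 0.87, since its 24 h value was further below its 0 h value in WT cells, and Slc2a6 followed at 0.64. Hk2 had the lowest at −0.55. The values were above 0 for 26 and below 0 for 9 of the 35 members, with a median of 0.11, where 50.9% of all genes lay above and 49.1% below 0 with a median of 0.00. In the payoff arm the median was 0.17, and the 8 values ran from −0.01 for Eno2 to 0.27 for Pkm.

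Of 34 further genes of the same pathways, listed by name, 33 were in the table, 9 were at 0 in all libraries and 16 were kept in the IL-4 comparisons. In OGT-KO cells 1 was past 2-fold higher and 1 lower at 24 h, and in WT cells 1 was higher and 3 lower, beside 5.16% higher and 5.99% lower of all genes in OGT-KO cells and 4.77% and 6.26% in WT cells, with medians of −0.23 and −0.27. A single gene of 16 is close to those shares. Prps1, which uses ribose 5-phosphate to make the activated ribose of nucleotides, had 27.8 FPKM at 24 h and 4.60 FPKM at 0 h in OGT-KO cells, against 35.2 FPKM at 24 h and 5.56 FPKM at 0 h in WT cells. Slc16a7, which encodes the pyruvate transporter MCT2, had 0.876 FPKM at 24 h and 5.76 FPKM at 0 h in OGT-KO cells, against 1.13 FPKM at 24 h and 5.59 FPKM at 0 h in WT cells. Prps1 differed by 2.36 and 2.47 and Slc16a7 by −1.85 and −1.63, alike in both genotypes. Slc2a9, a urate and hexose transporter, was past 2-fold lower in WT cells, at −1.06, with −0.83 in OGT-KO cells. H6pd, the glucose 6-phosphate dehydrogenase of the endoplasmic reticulum, had 9.37 FPKM at 24 h and 15.3 FPKM at 0 h in OGT-KO cells, against 3.61 FPKM at 24 h and 18.3 FPKM at 0 h in WT cells. Of the 15 genes of that list kept at 24 h, H6pd was the 1 past 2-fold between genotypes, at 1.17. Among all genes kept 0.832% were past 2-fold higher and 0.628% lower there. At 0 h it had −0.24, and 0 of 16 genes kept were past 2-fold. Its difference between the IL-4 values was 1.41, the 1 of 16 past 2-fold, beside 1.27% higher and 1.17% lower of all genes.

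Among 11 transcription factors known to act on glycolytic genes, 9 were kept, 2 were past 2-fold higher at 24 h and 1 was lower in each genotype, to be read against the same shares of all genes, as are the counts that follow. Myc had 16.6 FPKM at 24 h and 1.55 FPKM at 0 h in OGT-KO cells, against 21.8 FPKM at 24 h and 1.98 FPKM at 0 h in WT cells. Bhlhe40, a repressor of the basic helix-loop-helix family, had 33.6 FPKM at 24 h and 4.42 FPKM at 0 h in OGT-KO cells, against 44.6 FPKM at 24 h and 8.07 FPKM at 0 h in WT cells. Both were higher at 24 h in each genotype, whereas the related Bhlhe41 had 2.84 FPKM at 24 h and 7.88 FPKM at 0 h in OGT-KO cells, against 1.92 FPKM at 24 h and 8.81 FPKM at 0 h in WT cells. Of 16 HIF targets outside glycolysis, 13 were kept in OGT-KO cells and 12 in WT cells, with 1 past 2-fold higher (Tfrc, the transferrin receptor) and 1 lower (Ndrg1) in each, and medians of −0.05 and −0.08. Cell cycle genes moved with time as well: 15 of the 16 kept lay above 0 in each genotype, and Pcna, Mcm2, Mcm3 and Mcm5 were past 2-fold higher. Their summed level was 361 FPKM at 24 h and 136 FPKM at 0 h in OGT-KO cells, against 360 FPKM at 24 h and 155 FPKM at 0 h in WT cells, and their part in the members' values was not tested.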

How the data were processed

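RNA of 4 macrophage cultures was sequenced from 1 ug of total RNA each. The authors deposited 1 table of FPKM values per gene. Per the submitters' processing notes, STAR, StringTie and the GRCm38 (mm10) build were used; versions, annotation and strandedness: not given in the sources used here. FPKM was read as the unit from the file and its values, and no column was left unused. IDs were paired with symbols for 52403 of 52550 genes. Gene positions, exon overlaps and copies come from GENCODE M21, with copies found by minimap2 2.31 (95% identity over 200 bases, outside the gene's own locus). Promoter windows are from RefSeq.

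Differences are log2(FPKM + 1), OGT-KO minus WT or 24 h minus 0 h, over genes that reached 1 FPKM in any library compared, with sizes of 2-fold and 1.5-fold (Python 3.11.15, pandas 2.3.3). With 1 library per group no test was made. Only the log2 differences and the filter were tested on simulated data, drawn from the WT 0 h values. Fragments per FPKM were estimated from the steps between low values of 9109 one-exon genes and cover counting only. Exons of 14 members overlap another gene, which reached 1 FPKM for 8. The members and lists were chosen with earlier results of these data known. All members are named, and genes of other lists where they were past 2-fold, up to 4 per list and comparison, except Ly6g and G6pc3, which were chosen after their values were seen. S100a9 and Ngp were also chosen after their values were seen. Some genes are not reported here. Alternatives were pseudocounts of 0.1 and 5, no filter and one at 5 FPKM, 2 rescalings, Eno1 and Eno1b summed, and, chosen after seeing the data, copies added.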

Additional observations from a re-analysis of the deposited data

Results flagged for a closer look

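Pfkfb3, which makes the activator of phosphofructokinase, differed between genotypes in opposite directions at the 2 times, with at least 1 of them past 1.5-fold. The OGT-KO minus WT difference was 0.59 at 24 h and −0.28 at 0 h on the log2(FPKM + 1) scale. The levels were 5.14 FPKM in OGT-KO cells and 3.07 FPKM in WT cells at 24 h, and 9.01 FPKM in OGT-KO cells and 11.1 FPKM in WT cells at 0 h. The 24 h difference was 1.51-fold, and with a pseudocount of 5 it was 0.33, under 1.5-fold. Among all genes kept 2.91% were past 1.5-fold higher in OGT-KO cells at 24 h. The same direction at both times was found for 24 of 33 members and 68.9% of all genes, so opposite directions were not rare. With 1 library per group the change of direction was not tested.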

How the results depend on the processing

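No difference past 2-fold changed direction under the alternatives run. Pseudocounts and filters cannot reverse a difference between 2 libraries, and the rescalings were too small to reverse one past 2-fold, so for them this is no check. Under at least 1 of the pseudocounts or rescalings, 13 member differences of at most 0.15 in size changed sign. The largest was that of Slc16a1 between IL-4 values (−0.15 as reported, 0.04 with a pseudocount of 5). The members' median between genotypes at 24 h was 0.03 (−0.02 as reported) under the median-ratio rescaling. With a pseudocount of 0.1, members past 2-fold lower at 24 h became 1 in OGT-KO cells and 3 in WT cells (0 and 1 as reported), those past 1.5-fold between genotypes at 0 h became 1 higher and 2 lower (0 and 1), and 1 member passed 2-fold in the difference between IL-4 values (0). With a pseudocount of 5, members past 1.5-fold lower at 24 h became 0 in OGT-KO cells and 1 in WT cells (2 and 3), those past 2-fold lower in WT cells 0 (1), the WT median 0.39 (0.53), those past 1.5-fold lower at 0 h 0 (1), and those past 1.5-fold higher at 24 h between genotypes and between IL-4 values 0 each (2 each). A pseudocount weighs most on low genes: at 5, Slc2a1 had 0.92 in OGT-KO and 0.95 in WT cells, Slc2a6 had 0.76 in OGT-KO cells, and Pfkfb3 in WT cells came just under 2-fold, and at 0.1 Slc2a3 had −1.58 and −1.59, Aldoc −1.26 in WT cells and Pfkfb3 1.03 between IL-4 values. A filter at 5 FPKM, which tests fewer members, left 1 past 1.5-fold lower in each genotype and an OGT-KO median of 0.71 (0.41). With Eno1 and Eno1b summed, they held 99.1% of enolase FPKM in OGT-KO cells and 98.7% in WT cells at 24 h (72.2% each for Eno1 alone). Rescaling shifted the median of all genes by at most 0.054 on the log2 scale and moved no member across 2-fold. No paired analysis was possible because each group had 1 library and no replicate number, and for the same reason no library could be left out. Eno1b was listed at 0 at 0 h, and of the other members those with least depth were Aldoc, Slc2a3 and Eno2.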

Other observations

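Of 18 citric acid cycle genes, 17 lay above 0 in each genotype, with medians of 0.62 in OGT-KO cells and 0.60 in WT cells, and 3 were past 2-fold higher, Idh3a and Mdh2 among them. Of all genes, 52.7% lay above 0 in OGT-KO cells and 52% in WT cells, and 5.16% and 4.77% were past 2-fold higher. Idh3a, a subunit of isocitrate dehydrogenase, had 13.4 FPKM at 24 h and 3.72 FPKM at 0 h in OGT-KO cells, against 14.5 FPKM at 24 h and 4.08 FPKM at 0 h in WT cells. In the serine and one-carbon branch, which leaves glycolysis at 3-phosphoglycerate, 1 gene was past 2-fold higher in each genotype, of 5 kept in OGT-KO cells and 7 in WT cells. That gene, Psat1, had 12.8 FPKM at 24 h and 1.81 FPKM at 0 h in OGT-KO cells, against 15.4 FPKM at 24 h and 2.66 FPKM at 0 h in WT cells. None of 10 genes of pyruvate entry into mitochondria was past 2-fold, with medians of 0.23 and 0.22.

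In the glycogen list 1 of 10 genes kept, and in the gluconeogenesis list 1 of 2, was past 2-fold lower in each genotype, beside 5.99% of all genes in OGT-KO cells and 6.26% in WT cells. Pygl, the liver-type glycogen phosphorylase, had 7.99 FPKM in OGT-KO cells and 10.2 FPKM in WT cells at 24 h, and was lower there than at 0 h by 1.29 in OGT-KO cells and 1.12 in WT cells on the log2 scale. Pck2, the mitochondrial phosphoenolpyruvate carboxykinase, had 3.17 FPKM at 24 h and 9.59 FPKM at 0 h in OGT-KO cells, against 4.18 FPKM at 24 h and 9.72 FPKM at 0 h in WT cells. The glycogen genes kept lay 5 above and 5 below 0 in OGT-KO cells and 6 above and 4 below in WT cells, and the other gluconeogenesis gene kept, the glucose 6-phosphatase gene G6pc3, had 0.73 in OGT-KO cells and 0.51 in WT cells. Aldh1l1, a folate enzyme that makes NADPH, was past 2-fold higher in WT cells at 1.06, with 0.48 in OGT-KO cells, and the difference between these values was −0.58. Exons of Aldh1l1, Slc16a7, Bhlhe40, Bhlhe41 and Ndrg1 overlap those of other genes, and the counting by strand is not given.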
